A study of Mus musculus with 8 samples.

Results

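The genes described here are the immunoglobulin segments and the genes that define antibody-secreting plasma cells, 399 of the 56030 rows of the table. The rule picks rows by gene name and not by their values, though it was set with earlier results of these data known. It takes every heavy, kappa or lambda variable (V), joining (J) or constant row, the heavy diversity (D) rows, the Ighg genes, Ighm, Igha and Ighd, and the plasma cell genes Jchain, Mzb1, Tnfrsf17, Derl3 and Sdc1. Of these rows 394 were immunoglobulin rows and 5 were plasma cell genes. RNA sequencing had been done on crypt cells of the ileum of C57BL/6 mice that received CPT-11 or vehicle, 4 libraries per group. CPT-11 is irinotecan, which the body converts to an inhibitor of topoisomerase I, and the treatment was 20 mg/kg for 7 days. Crypts were freed from the opened ileum with EDTA and shaking, strained, spun down and dispersed with trypsin, and no sort is described, so cells lying beside the epithelium could be carried along. Whether the 4 libraries of a group are 4 animals is not stated in the labels, so p-values below reflect differences among libraries that may be technical.

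An antibody is built from 2 kinds of chain: a heavy chain, whose constant gene sets the isotype, and a light chain of the kappa or the lambda type. A V, a J and, for the heavy chain, a D segment are joined in the DNA of each developing B cell, and the joined unit is then transcribed together with a constant gene. Naive B cells carry IgM and IgD made from the same heavy chain transcript by alternative RNA processing, while the plasma cells of the intestinal lamina propria mostly secrete IgA, which the J chain links into dimers and the epithelium carries into the lumen.

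The lambda constant genes Iglc2 and Iglc3 are shown first because a result turns on them and because they resemble each other closely. The stretches are the start of each constant exon in the GENCODE M21 transcripts (build GRCm38), 5′ to 3′, and capitals mark the 7 of 120 positions at which they differ. Iglc2 lies at chr16:19198396-19200351 and Iglc3 at chr16:19065230-19065681, both on the minus strand.
Iglc2: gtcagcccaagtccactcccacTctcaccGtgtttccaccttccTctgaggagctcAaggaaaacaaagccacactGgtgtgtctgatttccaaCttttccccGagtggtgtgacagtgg
Iglc3: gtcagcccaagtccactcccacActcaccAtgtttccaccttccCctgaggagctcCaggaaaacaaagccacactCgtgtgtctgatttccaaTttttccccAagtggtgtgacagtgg
The longest run of bases that the 2 transcripts share is 79, so reads could be divided between these 2 genes. Their sum is given beside their single values for that reason.

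The mu, delta and alpha constant genes, in contrast, share little sequence. Their first 60 bases show this, and the longest run shared by any pair of the 3 full transcripts is 13 bases, between Igha and Ighd. Ighm lies at chr12:113418558-113422730, Ighd at chr12:113406604-113416324 and Igha at chr12:113254830-113260236, all on the minus strand.
Ighm: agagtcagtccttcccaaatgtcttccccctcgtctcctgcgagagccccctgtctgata
Ighd: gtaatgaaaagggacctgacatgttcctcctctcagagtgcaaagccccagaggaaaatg
Igha: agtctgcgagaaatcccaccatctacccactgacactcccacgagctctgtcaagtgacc

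The D and J rows are so short that their letters fit on a line each. The shortest D row, a longer D row, a heavy J row and a kappa J row are given because every row of these kinds stood at 0 in all 8 libraries.
Ighd5-2: gaatacctac
Ighd1-1: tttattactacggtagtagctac
Ighj1: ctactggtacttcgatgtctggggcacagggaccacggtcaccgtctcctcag
Igkj1: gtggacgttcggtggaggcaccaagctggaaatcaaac
The 20 D rows span 10 to 29 bases, the 4 heavy J rows 48 to 54, the 5 kappa J rows 38 to 39 and the 5 lambda J rows 38 to 42. A count of 0 in rows this short says that no read was credited to them. It does not say that the segments were unused, since a read from a joined gene also covers a V or a constant segment.

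Immunoglobulin transcripts were a trace component of these crypt preparations. Total counts per library were 20790164 to 23479121, and all 394 immunoglobulin rows together received 301, 781, 591 and 1354 counts in vehicle replicates 1 to 4 and 980, 778, 608 and 1153 in CPT-11 replicates 1 to 4. Values below are given as CPM, counts scaled to a fixed library size after TMM scaling, a correction for composition. On this scale the 10 epithelial genes used as a check of the labelled tissue, such as Epcam and Vil1, summed to 11905 to 13864 CPM in vehicle and 13604 to 18199 CPM in CPT-11 libraries, against 13.1 to 57.8 CPM for all immunoglobulin rows. CPT-11 replicate 2 stands apart from the other libraries: its TMM-scaled size was 16214320, against 20226573 to 23951501 elsewhere.

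Of the 399 rows, 249 were at 0 in every library and 150 had a count in at least 1. Most of the latter, 138, lay below the filter on low counts (about 10 counts in 4 libraries and 15 in total), which left 12 rows for the test: Ighm, Ighd, Igha, Ighg2b, Igkc, Iglc2, Iglc3, Igkv3-2, Iglv1, Jchain, Derl3 and Sdc1. In edgeR's quasi-likelihood test with Benjamini-Hochberg adjustment over the 14011 genes tested, 2 of these rose with CPT-11, Ighd and Iglc2. Among all genes tested, 5.50% were called in either direction and 2.98% were called higher. None fell, against 2.52% of all genes called lower. At an unadjusted p below 0.05, 5 were higher and 0 lower, against 13.4% and 11.2% of all genes. DESeq2 called 5 higher and 0 lower, but it also called more of all genes tested, 1884 in either direction against 770 with edgeR. The median log2 fold change of the 12 was 0.81, against 0.014 over all genes tested. Ighd, Iglc2 and Iglc3 reached 10 counts in at most 1 vehicle library and in all 4 CPT-11 libraries, so they entered the test through the group in which they were high, and neither the counts nor the median speak for the 387 rows that were not tested.

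Ighd, the delta constant gene of IgD, had 1, 5, 28 and 6 counts in vehicle replicates 1 to 4 and 63, 70, 48 and 76 in CPT-11 replicates 1 to 4. As CPM these were 0.0436, 0.237, 1.17 and 0.256 with vehicle, and 2.86, 4.32, 2.01 and 3.76 with CPT-11. Every CPT-11 library lay above every vehicle library, and vehicle replicate 3 was the only control library with more than a handful of reads. The mean was 0.426 ± 0.504 CPM (SD, n = 4) in vehicle libraries and 3.24 ± 1.01 CPM (SD, n = 4) with CPT-11. The fitted log2 fold change was 2.89 ± 0.67 (SE), a 7.40-fold difference, with an adjusted p of 0.0370 by edgeR. Groups that did not overlap were found for 8.43% of all genes tested in this direction. The call is close to the threshold: it was met in 12 of 19 other settings and lost in 7, among them those without vehicle replicate 1 (adjusted p = 0.0780), 2 (0.0998) or 4 (0.0979) and without CPT-11 replicate 1 (0.0751) or 4 (0.0855). The log2 fold change stayed between 2.48 and 4.13 in those settings, the highest being the fit without vehicle replicate 3.

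Iglc2, 1 of the 4 lambda constant genes, had 4, 4, 4 and 6 counts in vehicle replicates 1 to 4 and 15, 25, 12 and 21 in CPT-11 replicates 1 to 4. The groups did not overlap, and the vehicle libraries lay close together at 0.167 to 0.256 CPM. The mean was 0.197 ± 0.0406 CPM (SD, n = 4) in vehicle libraries and 0.941 ± 0.458 CPM (SD, n = 4) with CPT-11, and the edgeR log2 fold change of 2.20 ± 0.46 (SE) had an adjusted p of 0.0239. It was lost in 6 of 18 other settings: without any 1 of the 4 vehicle libraries (adjusted p 0.0563 to 0.0928), without CPT-11 replicate 4 (0.0606) and without CPT-11 replicates 2 and 4 together (0.101).

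Iglc3, its near copy, had 3, 12, 8 and 3 counts with vehicle and 22, 19, 13 and 17 with CPT-11. In CPM, vehicle replicate 2 at 0.569 overlapped CPT-11 replicate 3 at 0.544, and the other CPT-11 libraries lay above all vehicle libraries. Its log2 fold change, 1.60 ± 0.51 (SE), missed the threshold with edgeR (adjusted p = 0.0983), while DESeq2 gave an adjusted p of 0.0472. All counts of both genes were whole numbers, so fractional values give no sign of reads shared between them. The sum, which does not depend on how reads were assigned, is given as well: Iglc2 with Iglc3 had 7, 16, 12 and 9 counts with vehicle and 37, 44, 25 and 38 with CPT-11. These sums were 0.487 ± 0.198 CPM (SD, n = 4) and 1.83 ± 0.688 CPM (SD, n = 4), with no overlap between the groups. Iglc4 was at 0 in all 8 libraries, and Iglc1 had counts in 3 libraries, with 10.46 in CPT-11 replicate 2 and at most 3.01 elsewhere.

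**Figure D1:**
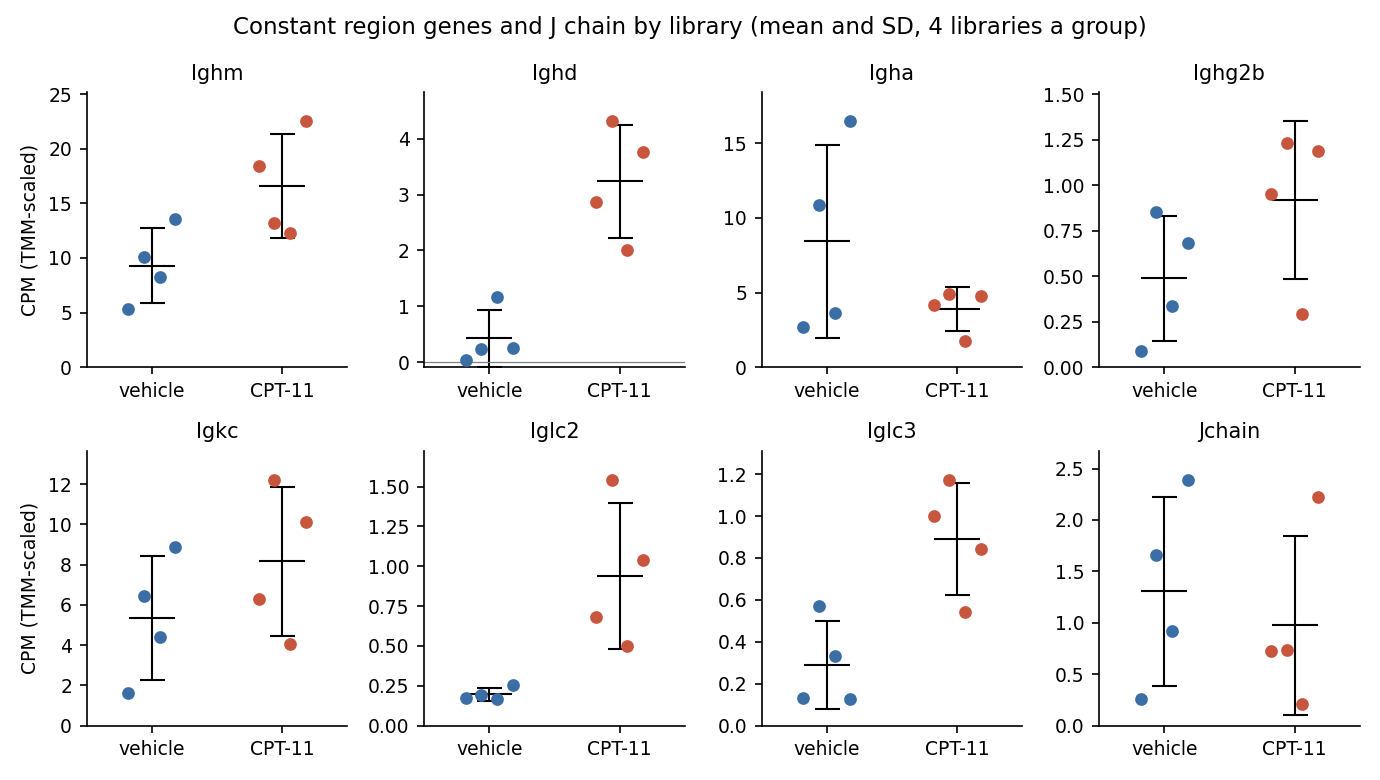
Expression of 7 immunoglobulin constant region genes and of the J chain gene, in CPM on a linear axis for each gene. Points are libraries (4 vehicle in blue, 4 CPT-11 in red), the horizontal bar is the mean and the whiskers are the SD. The groups separate for Ighd (0.0436 to 1.17 against 2.01 to 4.32 CPM) and Iglc2 (0.167 to 0.256 against 0.502 to 1.54 CPM) and overlap for the other 6 genes.

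Ighm, the mu constant gene of IgM, was the most highly counted immunoglobulin gene, with 5.36, 10.0, 8.22 and 13.6 CPM in vehicle replicates 1 to 4 and 18.4, 13.2, 12.3 and 22.5 CPM in CPT-11 replicates 1 to 4. Vehicle replicate 4 overlapped CPT-11 replicates 2 and 3, and the other vehicle libraries lay below all CPT-11 libraries. Its log2 fold change, 0.84 ± 0.29 (SE), missed the threshold with edgeR (adjusted p = 0.121), whereas DESeq2 (0.0468) and limma-voom with quality weights (0.0141) placed it below the threshold.

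Igha, the alpha constant gene of IgA, had 2.70, 10.9, 3.63 and 16.5 CPM in vehicle replicates 1 to 4 and 4.18, 4.87, 1.76 and 4.80 CPM in CPT-11 replicates 1 to 4. Vehicle replicates 2 and 4 were high and vehicle replicates 1 and 3 lay within the range of the CPT-11 libraries. The means were 8.42 ± 6.49 CPM (SD, n = 4) and 3.90 ± 1.46 CPM (SD, n = 4), and the difference was within the spread between libraries (log2 fold change -1.12 ± 0.56 SE, edgeR adjusted p = 0.243, and 0.169 to 0.542 in 19 other settings). Without vehicle replicate 4 the log2 fold change was -0.56.

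The 4 Ighg genes, which encode the IgG isotypes, were scarce. Ighg2b had 2, 18, 8 and 16 counts with vehicle and 21, 20, 7 and 24 with CPT-11 (log2 fold change 0.89 ± 0.63 SE, edgeR adjusted p = 0.392). Ighg1 had 0, 2, 29 and 14 counts with vehicle and 4, 6, 0 and 1 with CPT-11, and Ighg3 had 1, 6, 0 and 1 against 7, 3, 2 and 10. Neither was tested, and the groups overlapped in both. Ighg1 and Ighg2b transcripts share a run of 59 bases, so their separate counts are uncertain. Ighg2c had at most 2 counts in a library.

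Igkc, the single kappa constant gene (chr6:70726435-70726966, plus strand), had 1.61, 6.45, 4.41 and 8.89 CPM in vehicle replicates 1 to 4 and 6.28, 12.2, 4.03 and 10.1 CPM in CPT-11 replicates 1 to 4. The groups overlapped broadly, and the log2 fold change was 0.61 ± 0.48 (SE), with an edgeR adjusted p of 0.447. Per kilobase of transcript, which allows levels to be compared between genes, Igkc was the highest immunoglobulin row, at 10.0 CPM per kb with vehicle and 15.3 with CPT-11. Ighm was second in both groups, at 5.48 and 9.77 CPM per kb. Below it Igha stood at 3.32 with vehicle and 1.54 with CPT-11, Igkv3-2 at 2.89 and 5.03, Iglv1 at 1.73 and 3.12, Iglc2 at 0.430 and 2.05, and Ighd at 0.236 and 1.79. The order of these lower rows thus differed between the groups, and no test was made of it.

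Within the heavy constant counts, the isotypes divided differently in the 2 groups. Ighm, Ighd, Igha and the 4 Ighg genes together had 189, 473, 349 and 743 counts with vehicle and 594, 393, 392 and 663 with CPT-11. Igha made up 32.8%, 48.6%, 24.9% and 52.0% of these counts in vehicle replicates 1 to 4, and 15.5%, 20.1%, 10.7% and 14.6% in CPT-11 replicates 1 to 4. The lowest vehicle share had an exact (Clopper-Pearson) 95% interval of 20.5% to 29.8% and the highest CPT-11 share one of 16.3% to 24.4%, so these nearest libraries were not separated by counting error, which is all that such intervals cover. The Ighd share was 0.529%, 1.06%, 8.02% and 0.808% with vehicle and 10.6%, 17.8%, 12.2% and 11.5% with CPT-11, again without overlap. Here too the nearest pair was not separated: the interval of vehicle replicate 3 was 5.40% to 11.4%, and that of CPT-11 replicate 1 was 8.25% to 13.4%. The shares of Ighm (42.8% to 65.1% against 54.5% to 74.7%) and of the Ighg genes (1.59% to 10.6% against 2.30% to 7.63%) overlapped. Shares of 1 total move together, since a higher Ighd and Ighm level lowers the Igha share by itself. They were given no test because they are scores over genes chosen with results of these data known.

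The same counts can be written as ratios, which add no further evidence. There were 0.504, 1.08, 0.442 and 1.21 Igha counts per Ighm count with vehicle, and 0.227, 0.369, 0.143 and 0.213 with CPT-11. Per Ighd count there were 3.11 to 64.3 Igha counts with vehicle, where Ighd had as few as 1, 5 and 6 counts, and 0.875 to 1.46 with CPT-11. Jchain per Igha count overlapped between the groups, at 0.0968 to 0.253 and 0.119 to 0.464.

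**Figure D2:**
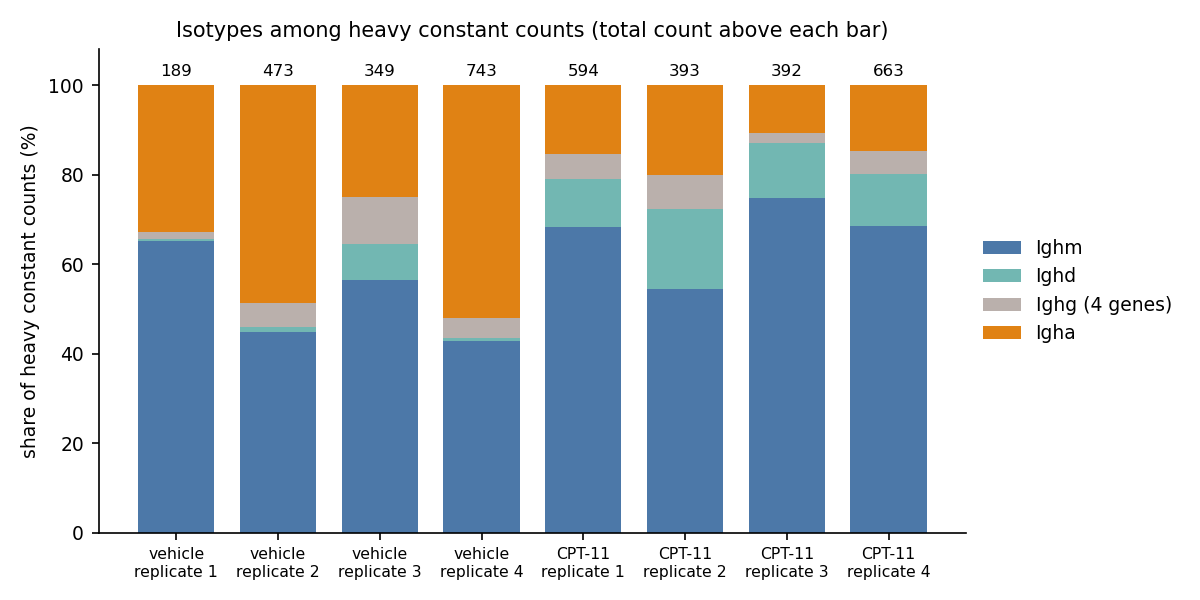
Share of each isotype (percent, stacked) among the counts of the 7 heavy constant genes, 1 bar per library, with the total count above each bar. Igha takes 24.9% to 52.0% of the vehicle bars and 10.7% to 20.1% of the CPT-11 bars, and Ighd takes 0.529% to 8.02% and 10.6% to 17.8%.

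Totals per chain class showed the lambda constant genes alone to be separate between the groups. The lambda constant total was 0.305, 0.758, 0.501 and 0.512 CPM in vehicle replicates 1 to 4 and 1.68, 3.36, 1.05 and 1.88 CPM in CPT-11 replicates 1 to 4, a ratio of means of 3.83. Iglc2 with Iglc3 made up 44 of the 47.02 counts of this class in vehicle and 144 of the 154.46 in CPT-11 libraries. The class total thus adds no further evidence to their sum. The heavy constant total was 19.2 ± 10.1 CPM (SD, n = 4) in vehicle libraries and 25.1 ± 6.80 CPM (SD, n = 4) with CPT-11. The heavy V total was 2.20 ± 1.78 and 1.38 ± 0.944 CPM, the kappa V total 5.10 ± 3.85 and 5.74 ± 2.34 CPM, and the lambda V total 0.753 ± 0.579 and 1.36 ± 0.675 CPM (SD, n = 4 each). In all of these, as for kappa constant, the groups overlapped and the difference between the means was smaller than the larger SD. Kappa rows, V and constant together, made up 83.8% to 92.8% of light chain counts with vehicle and 77.4% to 83.4% with CPT-11, which do not overlap but are less than 1 percentage point apart at their nearest. All lambda rows together summed to 0.626 to 1.92 CPM in vehicle and 1.46 to 5.30 CPM in CPT-11 libraries, with overlap.

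Over all 394 immunoglobulin rows the sum was 13.1, 37.0, 24.7 and 57.8 CPM in vehicle replicates 1 to 4 and 44.5, 48.0, 25.4 and 57.0 CPM in CPT-11 replicates 1 to 4. Vehicle replicate 1 was the lowest of all libraries and vehicle replicate 4 the highest, so the control group by itself spanned the whole range. The log2 ratio of the means was 0.40, and it ranged from 0.083 to 0.81 over 13 other settings. In a bulk sample such a total cannot separate fewer cells of a type from less RNA per cell, and this holds for every level given here.

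**Figure D3:**
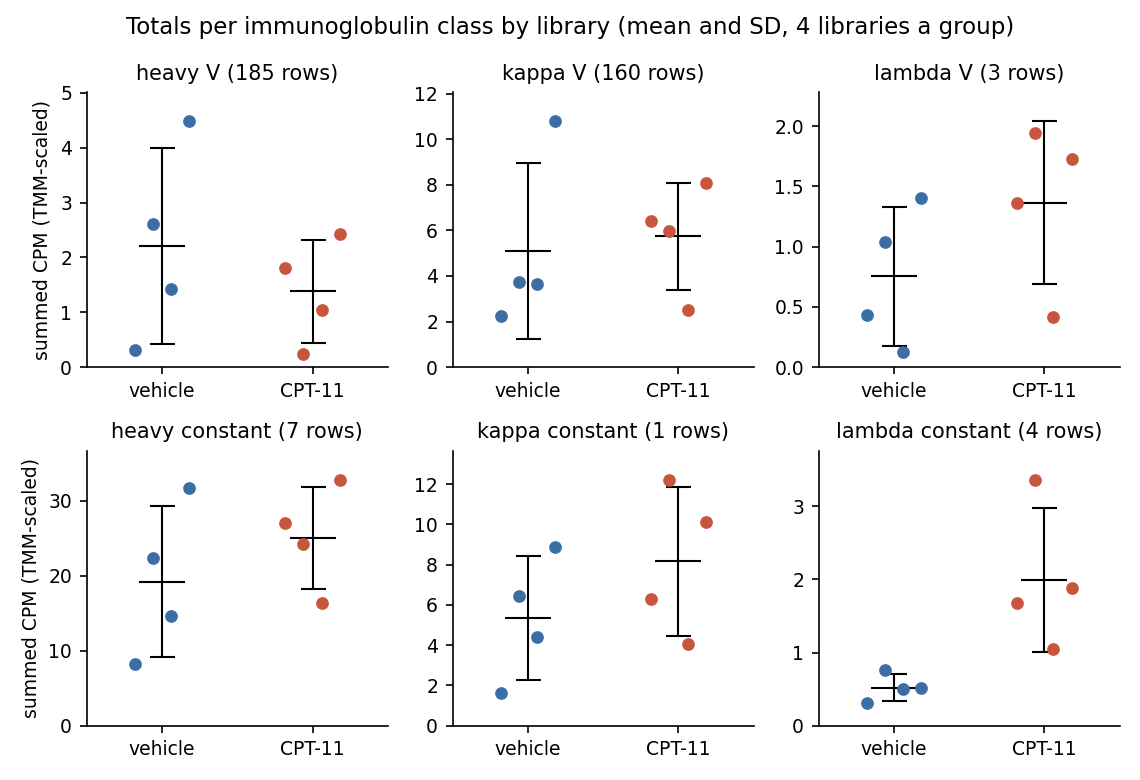
Summed CPM of the V rows (top) and of the constant rows (bottom) of the heavy, kappa and lambda chains, on linear axes. Points are libraries, bars are means and whiskers are SDs (4 libraries per group). The lambda constant totals do not overlap (0.305 to 0.758 against 1.05 to 3.36 CPM), and those of the other 5 classes do.

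The V rows show which variable segments were transcribed in the cells present, as far as so few reads, some of them divided between rows, can tell. Of 348 V rows, 135 had a count in at least 1 library: 59 of 185 heavy, 73 of 160 kappa and all 3 lambda rows. GENCODE classes 130 of the V rows as pseudogenes, which cannot encode a chain, and 2 of these had a count, 1 each in Ighv4-2 and Igkv4-77. Vehicle libraries together gave counts in 109 V rows and CPT-11 libraries in 104, with 78 in both. Only 4 V rows had a count in every library: Igkv3-2, Igkv1-110, Igkv1-135 and Iglv1. Per library, 31, 49, 52 and 76 V rows were seen with vehicle and 61, 23, 40 and 66 with CPT-11. The groups overlapped in these numbers, and CPT-11 replicate 2, with 2 heavy V rows, had the fewest.

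Among the V families, Ighv1, the largest heavy family, had counts in 32 of its 93 rows, 129 in all with vehicle and 80 with CPT-11. The Igkv4 family had 122 and 81, and the Igkv3 family 103.92 and 156.86, nearly all from Igkv3-2. Single V rows varied strongly between libraries of a group. Ighv1-19, the most counted heavy V row, had 0, 11.84, 1 and 18.09 counts with vehicle and 0, 0, 3 and 1.44 with CPT-11. Igkv4-61 had 0, 0, 5 and 31.94 with vehicle and 9, 0, 7 and 1 with CPT-11. Fractional counts mark reads divided between rows, so the counts of single V rows are uncertain. The last 80 bases of both rows are shown because they are the most counted V rows of the heavy and kappa chains outside Igkv3-2, and because they carry the end of the V segment, just before the joint.
Ighv1-19: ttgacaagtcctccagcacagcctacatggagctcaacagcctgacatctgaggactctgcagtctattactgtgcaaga
Igkv4-61: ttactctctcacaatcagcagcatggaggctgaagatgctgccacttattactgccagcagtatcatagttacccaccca
The other V rows among the 10 with the highest mean were Igkv1-110, Igkv1-117, Igkv4-59, Igkv1-135, Igkv10-96 and Igkv6-23, all at or below 0.791 CPM in every library and all below the filter. Igkv1-110 and Igkv1-117 transcripts share a run of 142 bases, and in 1 library their fractional counts added up to a whole number. Leaving out Igkv3-2 and Iglv1, the most counted V row held 6.96% to 11.2% of V counts with vehicle and 6.33% to 15.2% with CPT-11.

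Igkv3-2 (chr6:70698449-70699067, plus strand), the most counted V row, had 6, 14.89, 6.34 and 73.69 counts with vehicle and 44.76, 55.12, 12.64 and 33.34 with CPT-11. It reached 41.5% of all V counts in CPT-11 replicate 2. The groups overlapped, and the log2 fold change of 0.78 ± 0.80 (SE) had an edgeR adjusted p of 0.564. It was 2.20 without vehicle replicate 4 and 0.36 without CPT-11 replicate 2, and neither passed. Its values cannot be taken as those of 1 V segment, however. In 7 libraries Igkv3-2 and Igkc had fractional counts, and in all 7 the 2 added up to a whole number (tolerance 1e-06). In the GENCODE M21 transcripts their longest shared run is 10 bases, as the start of Igkc and the end of Igkv3-2 show.
Igkc: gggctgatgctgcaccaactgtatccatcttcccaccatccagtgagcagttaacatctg
Igkv3-2: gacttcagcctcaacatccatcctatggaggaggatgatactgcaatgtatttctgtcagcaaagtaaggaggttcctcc
How the 2 came to share reads was not tested. Their sum was 6.43 ± 4.31 CPM (SD, n = 4) in vehicle libraries and 10.1 ± 4.72 CPM (SD, n = 4) with CPT-11, with overlapping groups. Iglv1, the main lambda V row, had 6, 20, 2.99 and 31.99 counts with vehicle and 23.75, 31.54, 10 and 29 with CPT-11 (log2 fold change 0.85 ± 0.68 SE, edgeR adjusted p = 0.456, and 1.46 without vehicle replicate 4). Its fractional counts were made whole by those of Iglc1 in 3 of 4 libraries, and the sum of the 2 overlapped between the groups. In CPT-11 replicate 1 it was Iglv2, with 4.25 counts, that made the 23.75 counts of Iglv1 whole. The longest run of bases that Iglv1 shares is 104 with Iglv2 and 9 with Iglc1.

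The plasma cell genes gave no call in either direction. Jchain, which links IgA and IgM units, had 6, 35, 22 and 56 counts with vehicle and 16, 12, 5 and 45 with CPT-11. The groups overlapped across nearly their whole range (log2 fold change -0.43 ± 0.72 SE, edgeR adjusted p = 0.737). Mzb1, a chaperone of antibody assembly in the endoplasmic reticulum, had 2, 8.02, 3 and 8 counts with vehicle and 13, 8, 0 and 14 with CPT-11 and was not tested. Derl3, a component of the machinery that removes misfolded proteins from that compartment, had 0.848 ± 0.303 CPM (SD, n = 4) in vehicle libraries and 0.883 ± 0.210 CPM (SD, n = 4) with CPT-11 (edgeR adjusted p = 0.927). Tnfrsf17, the receptor BCMA of mature plasma cells, was at 0 in all 8 libraries, which allows up to 0.125 to 0.185 CPM per library (3 counts).

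Sdc1 encodes syndecan-1, the CD138 antigen of plasma cells, and is also made by intestinal epithelium. It had 106, 99.6, 117 and 119 CPM in vehicle replicates 1 to 4 and 154, 130, 134 and 157 CPM in CPT-11 replicates 1 to 4, without overlap. Its log2 fold change, 0.38 ± 0.12 (SE), missed the threshold with edgeR (adjusted p = 0.0992), but passed it with DESeq2 (0.0115) and in the edgeR fit without CPT-11 replicate 2 (0.0357). Sdc1 held 66.2% to 88.0% of the counts of all 399 rows in vehicle and 72.1% to 83.4% in CPT-11 libraries. Its level lay far above those of Jchain, Mzb1, Derl3 and Tnfrsf17 in every library.

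Other genes of the plasma cell program were taken from lists. Of 11 tested plasma cell regulators 0 rose and 0 fell with edgeR (1 higher and 1 lower at an unadjusted p below 0.05), and their median log2 fold change was -0.04. Prdm1, which drives plasma cell differentiation, averaged 2.33 ± 0.855 CPM in vehicle and 3.71 ± 1.02 CPM in CPT-11 libraries (SD, n = 4 each, edgeR adjusted p = 0.213). Xbp1, which expands the secretory apparatus and is also active in Paneth and goblet cells, had 211 ± 13.4 and 207 ± 25.5 CPM. Irf4 had 0 to 0.896 CPM in vehicle libraries and 0.198 to 0.628 CPM with CPT-11, and Pou2af1 had 1.14 to 1.71 and 0.987 to 1.83 CPM. Of 24 genes of the secretory machinery 0 rose and 0 fell (6 higher and 1 lower unadjusted), and of 12 surface and homing genes 0 rose and 0 fell (0 and 0 unadjusted). Over all genes tested, 13.4% were higher and 11.2% lower unadjusted. Several genes of these lists stood above the 13.1 to 57.8 CPM of all immunoglobulin rows together. In vehicle libraries Hspa5 averaged 569, Txndc5 415, Itgb1 143 and Cd81 117 CPM, while others were low, such as Pim2 at 7.18 and Slamf7 at 2.22 CPM. Which cells made these transcripts was not tested, so the numbers called do not speak for plasma cells alone.

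Calls were found among B cell genes. Of 25 B cell surface and signalling genes 19 were tested, 7 rose and 0 fell with edgeR (16 higher and 0 lower unadjusted), with a median log2 fold change of 1.95. All 25 had a count in some library. Fcmr, the receptor for IgM, had 0.174, 0.0948, 0.334 and 0 CPM in vehicle libraries and 1.73, 2.16, 1.34 and 1.93 CPM with CPT-11, a log2 fold change of 3.50 ± 0.60 (SE) at an adjusted p of 0.0122. It was 4.23 without vehicle replicate 3, and the call was lost without vehicle replicate 1 (0.0511). The others that rose included Cd22, which dampens the signal of the B cell antigen receptor (log2 fold change 2.64), Ms4a1, which encodes CD20, the receptor subunits Cd79a (2.34) and Cd79b (1.64), and Ly6d (1.95). In 14 of the 19 the groups did not overlap, with CPT-11 higher. Over all genes tested, 8.43% did not overlap in this direction, 2.98% were called higher and 13.4% were higher unadjusted. Fcmr had 4, 2, 8 and 0 counts with vehicle, so it too entered the test through the CPT-11 group. The same holds for Cd22 (8, 2, 14 and 3 counts with vehicle, and 45, 21, 43 and 45 with CPT-11). It also holds for Ms4a1, Cr2, Cxcr5, Bank1, Fcer2a and Pax5. The numbers called, their direction and the median of this list thus depend in part on the filter. All 25 genes of the list summed to 66.5 to 357 CPM in vehicle and 301 to 864 CPM in CPT-11 libraries, with overlap. Without Cd74, which epithelium also makes, the list summed to 26.7 to 38.1 CPM in vehicle libraries and 48.9 to 75.8 CPM with CPT-11. The number called was 0 without vehicle replicate 1 and 11 without CPT-11 replicate 2, so 1 library decides much of it, and without CPT-11 replicates 1 or 4 or vehicle replicate 4 it was 3, and 4 without vehicle replicate 2.

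The part of B cells in the Ighd and Iglc2 values was not tested. Of the 19 tested B cell genes 12 did not pass with edgeR, though all 19 had a positive log2 fold change. Among the 12, Spib (log2 fold change 0.02, adjusted p = 0.957) and Btk (0.28, 0.743) changed least. Others, such as Cr2 (2.78, 0.0704) and Cxcr5 (2.41, 0.0704), were higher at an unadjusted p below 0.05. Markers of other cells were counted in the same way. The shares over all genes tested were 2.98% called higher and 2.52% called lower, and 13.4% and 11.2% unadjusted. Of 11 tested macrophage and dendritic cell genes 2 rose, C1qc and Cd14, and 0 fell (7 higher and 1 lower unadjusted). The C1qc call was lost in 7 of 19 other settings, among them each of the 4 vehicle libraries left out (adjusted p 0.0609 to 0.110). The lower one, Itgam, had 2.30 ± 0.568 CPM in vehicle and 0.451 ± 0.368 CPM in CPT-11 libraries (SD, n = 4 each), without overlap, and an adjusted p of 0.0579. The 19 genes of the list summed to 61.6 to 78.1 CPM in vehicle libraries and 93.3 to 101 CPM with CPT-11. Of 21 tested genes of T cells and intraepithelial lymphocytes 0 rose and 0 fell with edgeR (5 higher and 0 lower unadjusted), and their sums of 204 to 654 CPM in vehicle and 416 to 655 CPM in CPT-11 libraries overlapped. Of 10 fibroblast and smooth muscle genes 0 rose and 0 fell (3 higher and 0 lower unadjusted), with sums of 27.8 to 73.7 and 60.3 to 161 CPM. Of 4 tested endothelial genes 0 rose and 0 fell (1 higher and 1 lower unadjusted), with Emcn at 0 throughout, and of 3 red blood cell genes 0 rose and 0 fell (1 higher and 0 lower unadjusted). The part of these cells in the immunoglobulin values was not tested.

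**Figure D4:**
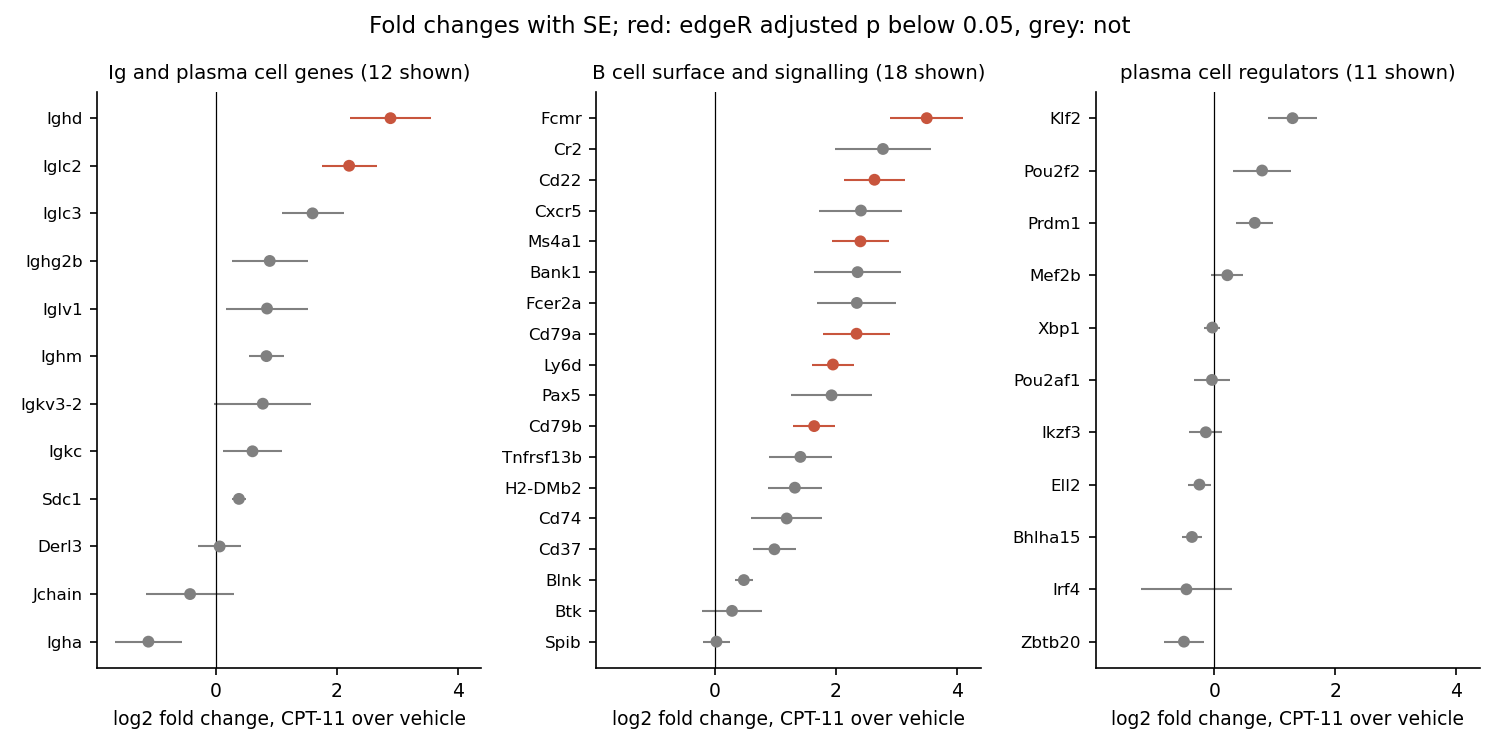
Log2 fold change of CPT-11 over vehicle with its SE for the 12 tested immunoglobulin and plasma cell genes (left), 18 of the 19 tested B cell genes (middle) and 11 tested plasma cell regulators (right). Red marks an edgeR adjusted p below 0.05: Ighd and Iglc2 on the left, 6 of the genes shown in the middle and 0 on the right.

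Genes of IgA transport and of the plasma cell niche were also measured. Pigr, the receptor that carries dimeric IgA and pentameric IgM across the epithelium, had 1819 ± 216 CPM (SD, n = 4) in vehicle libraries and 1407 ± 539 CPM (SD, n = 4) with CPT-11. CPT-11 replicate 2 was lowest at 715 CPM, the groups overlapped, and the edgeR adjusted p was 0.429. The survival factors Tnfsf13 (APRIL, adjusted p = 0.267) and Tnfsf13b (BAFF, 0.154) and the plasma cell attractants Ccl25 (0.453) and Ccl28 (0.219) did not pass either. Of the 13 tested genes of IgA transport and its niche 2 rose, where 2.98% of all genes tested were called higher. Tgfbr2, a receptor chain for TGF-beta, which directs switching to IgA, had 17.2 ± 1.23 CPM in vehicle libraries and 32.2 ± 6.17 CPM with CPT-11 (adjusted p = 0.0126). Aldh1a1, a retinoic acid-forming enzyme, had 106 ± 14.0 and 198 ± 25.1 CPM (SD, n = 4 each, adjusted p = 0.00914). Among the genes of this list that did not pass were Aldh1a2, with 2.20 ± 1.73 and 2.64 ± 1.80 CPM (SD, n = 4 each, edgeR adjusted p = 0.798), and Tgfb1 (0.496). Which cells made the Tgfbr2 and Aldh1a1 transcripts was not tested.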

How the data were processed

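The authors deposited 1 table of estimated counts per gene without normalization. Per the submitters' processing notes, Bowtie2 2.4.1 and build GRCm38.p6 were used, while the estimating tool, with its use of strand, is not given in the sources used here. The 543 rows without a gene name, 0.325% to 0.662% of each library's count, were left out. Estimates were rounded and fitted over the whole table with edgeR 4.0.16 in R 4.3.3 (TMM, default expression filter, robust quasi-likelihood F test, two-sided, Benjamini-Hochberg adjustment, threshold 0.05). Standard errors were derived from the F statistic. Sums and shares used the unrounded estimates and were not tested. Coordinates, gene types and sequences are those of GENCODE M21, in which all 399 rows were found by identifier. Named genes are all constant and plasma cell genes, the 10 V, D or J rows with the highest mean and those tested, and fixed or called genes of each list; V rows or genes named beyond this were chosen after their values were seen. The genes and lists were chosen with earlier results of these data known. Values of 2 list genes are not reported here, though counts and sums over their lists include them. The fit was tested on simulated data. Alternatives were RLE and upper-quartile scaling, TMM without the immunoglobulin rows, DESeq2 1.42.0, limma-voom (limma 3.58.1) with and without quality weights, a replicate block, 2 other filters (none, or a minimum of 1 CPM in 4 libraries), the unnamed rows added back, and libraries left out singly or as the pair CPT-11 replicates 2 and 4. Those for the B cell list and for single genes outside the immunoglobulin and plasma cell rows, and the sums of gene pairs, were chosen after seeing the data.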

Additional observations from a re-analysis of the deposited data

Results flagged for a closer look

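In 4 of 42 groups of 4 libraries examined, 1 library lay far from the other 3 by Dixon's criterion, which flags about 1 group in 20 by chance for continuous values. That rate does not apply to Iglc1, where single values stand among zeros, or to Ighg3, which had very few counts in the vehicle libraries. Ighg3 stood at 0.284 CPM in vehicle replicate 2 against at most 0.0436 CPM in the other vehicle libraries. Igkv3-2 stood at 3.14 CPM in vehicle replicate 4 against at most 0.705 CPM in the other vehicle libraries, and its values share reads with Igkc. Iglc1 stood at 0.128 CPM in vehicle replicate 4 and at 0.645 CPM in CPT-11 replicate 2, while it was at 0 in 5 libraries. Its 3.01 and 10.46 counts complete the fractional counts of Iglv1 to whole numbers.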

How the results depend on the processing

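Ighd, Iglc2 and the other genes that rose kept their direction in every alternative in which they were tested, and among the named genes the calls of Aldh1a1 and Cd14 held in all 19. Genes called over the whole table numbered 770, and 1884 with DESeq2, 3172 with limma-voom and quality weights, 1212 without CPT-11 replicates 2 and 4 together, and 236 to 1522 with 1 library left out. Immunoglobulin and plasma cell genes called higher numbered 2, and 5 with DESeq2, 5 with quality weights, 1 with the stricter filter, 0 without CPT-11 replicates 2 and 4, and 0 to 3 with 1 library left out. None was called lower in any of the 19 alternatives. B cell genes called higher numbered 7, and 13 with DESeq2, 15 with quality weights, 4 with the stricter filter, and 0 to 11 with 1 library left out. Directions reversed among uncalled genes only: Ccl25 to -0.016 and Igkc to -0.050 without CPT-11 replicates 2 and 4, and Irf4 to 0.38 and 0.35 with limma-voom without and with weights, and with 1 library left out Derl3 ranged from -0.12 to 0.28, Jchain from -1.24 to 0.040, Pou2af1 from -0.25 to 0.10 and Xbp1 from -0.10 to 0.028 on the log2 scale. The cause was not tested. Same-numbered libraries deviated together at correlations of 0.310, 0.166, -0.158 and 0.121, and 3 of the 4 numbers were their own best match, but replicate 3 was not, so the numbers were not taken to pair them. With the number as a replicate block 686 genes were called, 1 of them an immunoglobulin gene, Iglc2, while Ighd had an adjusted p of 0.0502 and 4 B cell genes were called higher. Most of the rows had under 10 counts in a library, which limits what could be detected.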

Other observations

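Ung, an enzyme that repairs DNA in many cells and acts in antibody class switching, had 9.65 to 13.7 CPM with vehicle and 5.37 to 16.3 CPM with CPT-11. Madcam1, the vessel ligand that lymphocytes bind on entering the gut, and the cytokine genes Il5 and Il21 were at 0 in all 8 libraries. These genes were singled out after their values were seen.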
